A study of Mus musculus with 20 samples.

Results

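Gene expression in the liver was compared between mice given 3 mg/kg/day and mice given 0.3 mg/kg/day of Nafion byproduct 2 (PFESA-BP2), a perfluorinated ether sulfonic acid. The comparison takes the 8 libraries labelled with these doses, 4 at each dose, out of 20 in the series, and asks which responses begin within this 10-fold step in dose. All animals were male Balb-C mice of 10 to 12 weeks, given the compound or vehicle by daily gavage over 7 days, and each library came from a separate animal. The other groups are a control group without the compound, 0.03 mg/kg/day and 6 mg/kg/day, with 4 libraries each. The protocol names deionized water as the control vehicle whereas the control titles carry DMSO, and which of these the animals received was not settled from the labels.

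RNA was measured with TempO-Seq, in which pairs of short detector oligonucleotides are ligated on the target RNA and counted. Libraries held 8836482 to 10310931 counts at 0.3 mg/kg and 6823518 to 9177664 at 3 mg/kg, so 3 counts correspond to 0.251 to 0.511 CPM, the unit used below, which is counts scaled to a fixed normalized library total. Counts were available for 30146 probes of 21450 gene symbols, and 14122 probes of 10101 genes passed the filter on low counts and were tested. A gene is described by its probe with the most counts unless another probe is named. Differences are given as log2 of 3 over 0.3 mg/kg with their standard error (SE), and a probe was called when the adjusted p of edgeR's quasi-likelihood test was under 0.05. Albumin (Alb), the main plasma protein made by hepatocytes, was counted at 6016 to 10804 CPM in all 8 libraries, which are liver by this marker.

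As background, liver cells meet foreign compounds through nuclear receptors. CAR and PXR switch on cytochrome P450 enzymes of the Cyp2b, Cyp2c and Cyp3a families with conjugating enzymes and transporters, and activation of CAR is also known to push rodent hepatocytes into the cell cycle. PPARalpha is activated by many perfluorinated acids and switches on fatty acid oxidation and the Cyp4a enzymes.

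Replicate 4 at 3 mg/kg stood apart from the rest of its group. Its mean correlation with the other 3 libraries was 0.870 on log2 CPM. For those 3 it was 0.942 to 0.945, each value including the pair with replicate 4, and at 0.3 mg/kg it was 0.976 to 0.984. The probes of a gene also did not move together in replicate 4 at 3 mg/kg: over 1608 genes with a pair of well-counted probes, the ratio of the pair was over 1 log2 unit away from its median over the 20 libraries in 33.8% of genes. This share was 0.124% to 3.17% in the other libraries except replicate 4 at 6 mg/kg, where it was 27.6%. A second feature concerns the assay plate. All 4 libraries at 3 mg/kg lay in row B, as did replicate 4 at 0.3 mg/kg, while replicates 1 to 3 at 0.3 mg/kg lay in row A with the control and 0.03 mg/kg libraries.

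**Figure D1:**
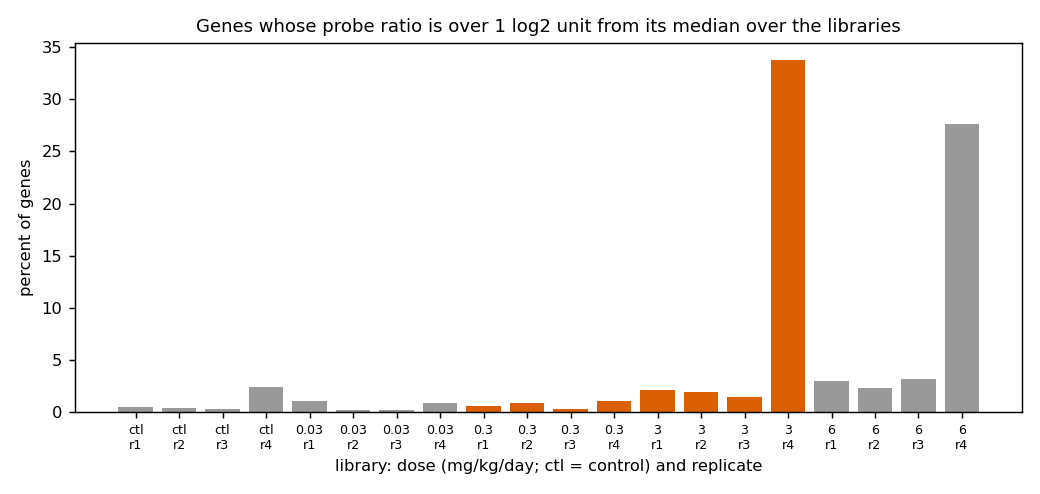
Percent of 1608 genes, for each of the 20 libraries, in which the ratio between 2 probes of the gene was over 1 log2 unit from its median over the libraries; orange bars are the libraries at 0.3 and 3 mg/kg. Replicate 4 at 3 mg/kg reached 33.8% and replicate 4 at 6 mg/kg 27.6%, and no other library exceeded 3.17%.

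Across the step, 263 probes were higher at 3 mg/kg (1.86% of those tested) and 138 were lower (0.977%). By main probe this was 203 genes higher (2.01%) and 93 lower (0.921%), with median log2 differences of 1.42 and -1.15, against a median of 0.02 over all genes. The genes that rose included Cyp2c66, S100a8, Cyp4a10, Gadd45b and 28 genes of mitosis. Of the genes called, 77 higher and 11 lower were members of the gene lists used here. All 4 libraries at 3 mg/kg lay above all 4 at 0.3 mg/kg for 176 of the 203 and below them for 87 of the 93, where 6.82% and 7.48% of all genes did so. The same libraries gave the calls, so high counts here follow from the choice of genes and do not add to the calls. Without replicate 4 at 3 mg/kg the calls were 359 probes higher and 233 lower, and without both libraries that stood apart they were 813 and 710.

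The calls depended on the plate row term and on which 0.3 mg/kg libraries entered. With row as a covariate, 2 probes were higher and 0 lower, and with the 4 libraries at 3 mg/kg set against the single row B library at 0.3 mg/kg, 3 were higher and 0 lower. The sign was kept for all 203 and all 93 genes in both fits, with median log2 differences of 1.18 and -0.78 within row B, and the median SE under the covariate was 0.49 and 0.39 in place of 0.29 and 0.27. Both fits reuse the 4 libraries at 3 mg/kg and the row B library at 0.3 mg/kg, which also gave the calls. A kept sign is thus favoured by the choice of genes and is no separate check on plate row. That row B library itself lay beyond the 3 row A libraries, toward the 3 mg/kg values, for 103 of the 203 genes that rose (34.9% of all genes tested lay above) and for 69 of the 93 that fell (30.4% lay below). Without it the counts were 395 higher and 251 lower, and without replicate 1, 2 or 3 at 0.3 mg/kg they were 111, 91 and 91 higher and 32, 17 and 25 lower. Scaling by total counts, which moved the median of all probes to -0.11, turned the split to 192 higher and 437 lower. The part of plate row in these differences cannot be told apart from dose for 3 of the 4 libraries at 0.3 mg/kg.

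**Figure D2:**
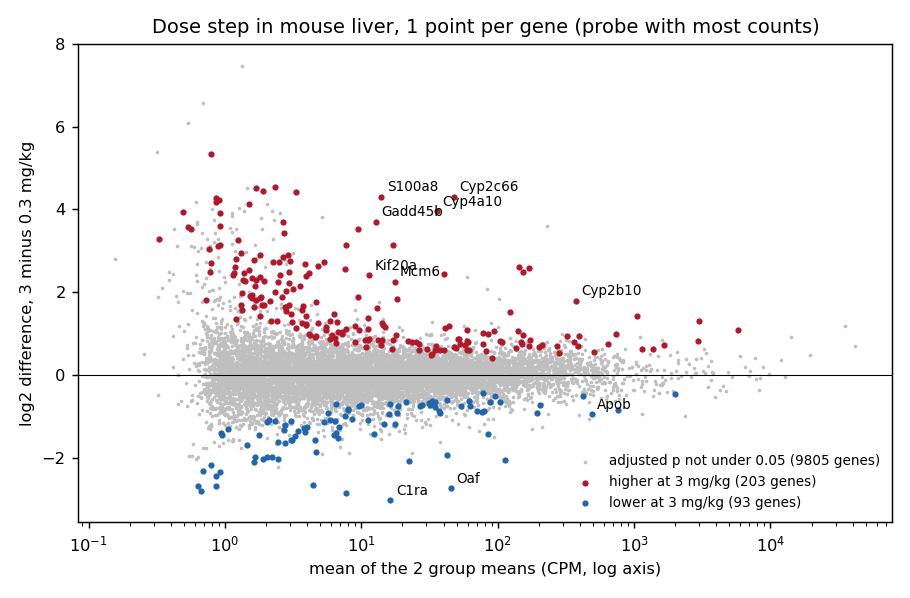
Log2 difference between 3 and 0.3 mg/kg (vertical axis) against the mean of the 2 group means in CPM (horizontal log axis) for 10101 genes, 1 point per gene. The 203 genes called higher (red) reach larger differences than the 93 called lower (blue), and grey points are genes without a call.

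Several drug-metabolizing P450 genes rose in the step. Of 29 tested genes of CAR and PXR responsive P450 enzymes and their electron and heme supply, 6 rose and 0 fell (20.7% against 2.01% of all genes), with a median log2 difference of 0.42. The count was 3 to 9 with single libraries left out. Cyp2b10, the classical CAR target, lies on chromosome 7 at 25897620 to 25926624 (GRCm38). Its level at 0.3 mg/kg was 154, 128, 160 and 228 CPM in replicates 1 to 4, and at 3 mg/kg it was 410, 682, 768 and 464 CPM. The groups did not overlap, and the log2 difference was 1.79 (SE 0.39, adjusted p = 0.0199). All 4 libraries at 0.3 mg/kg were already above the 8 control and 0.03 mg/kg libraries, and the mean went from 62.3 CPM in controls to 167 at 0.3, 581 at 3 and 2149 CPM at 6 mg/kg. The other tested probe of Cyp2b10 gave 36.4 CPM in replicate 4 at 3 mg/kg and 390 to 865 CPM in replicates 1 to 3, with a log2 difference of 0.98 that was not called.

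Cyp2c66, a member of the Cyp2c cluster on chromosome 19 (39113898 to 39187072), had the widest separation among P450 genes above 20 CPM. It was counted at 3.47, 1.45, 4.86 and 8.51 CPM at 0.3 mg/kg and at 58.9, 96.0, 125 and 81.6 CPM at 3 mg/kg. The lowest library at 3 mg/kg was thus far above the highest at 0.3 mg/kg, with a log2 difference of 4.31 (SE 0.40, adjusted p = 5.73e-06) and of 3.42 within row B, where it was still called (adjusted p = 0.047). It was the only gene called at 0.3 mg/kg against control and 0.03 mg/kg together (1 probe, 0.00708% of those tested), from means of 0.49 and 0.51 CPM, so its response did not start in this step. Its neighbours Cyp2c55 and Cyp2c65 were also called higher. Cyp2c55 was at 43.3 to 61.7 CPM at 0.3 mg/kg and at 192, 416, 527 and 34.8 CPM at 3 mg/kg, so that replicate 4 lay below the 0.3 mg/kg group. Cyp2c65 had at most 1 count in any library at 0.3 mg/kg and 0.69 to 2.96 CPM at 3 mg/kg. Cyp2c54 rose from 1718 ± 89.6 to 4261 ± 1053 CPM (SD, n = 4). Genes of the Cyp2c, Cyp3a, Gsta, Ces2, Sult and Orm families have near-identical copies, and how the authors assigned reads among copies is not given in the sources used here.

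Members of the same list that did not pass the test included the major PXR target Cyp3a11 and the reductase Por that feeds electrons to P450 enzymes. Por was at 44.8 to 54.3 CPM at 0.3 mg/kg and 54.8 to 121 CPM at 3 mg/kg, without overlap, at an adjusted p of 0.202. For Cyp3a11 the main probe read 1194, 1388, 2232 and 95.5 CPM at 3 mg/kg against 1282 to 2030 CPM at 0.3 mg/kg (log2 -0.36, adjusted p = 0.759). A different probe of Cyp3a11 read 713, 756, 1265 and 1544 CPM against 351 to 537 CPM and was called higher (log2 1.22, adjusted p = 0.046). The direction for Cyp3a11 therefore depended on the probe, and replicate 4 at 3 mg/kg was the lowest library by one probe and the highest by the other. Cyp1a1, the marker of AHR activation, was below the filter, with at most 9 counts from any probe in these 8 libraries.

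Conjugation genes rose in a share close to the 20.7% of the shorter P450 list. Of 61 tested genes of conjugation, hydrolysis and aldehyde oxidation, 13 rose and 0 fell (21.3%), and the median log2 difference was 0.37. The count was 12 higher and 2 lower without replicate 4 at 3 mg/kg and ranged from 6 to 18 higher when single libraries were left out. Ces2a, a carboxylesterase, went from 547, 574, 569 and 587 CPM to 795, 1255, 1561 and 2447 CPM. Replicate 4 at 3 mg/kg was the highest and the groups did not overlap (log2 1.41, SE 0.26, adjusted p = 0.005).

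Among the glutathione transferases, which couple glutathione to electrophiles, Gsta2 was at 79.4, 57.2, 57.5 and 58.7 CPM and rose to 136, 235, 251 and 101 CPM (log2 1.51, adjusted p = 9.62e-04). Gsta1 was at 58.7, 44.3, 31.6 and 26.1 CPM and at 175, 325, 464 and 13.7 CPM, so that 3 libraries at 3 mg/kg were above and replicate 4 below all libraries at 0.3 mg/kg. Its log2 difference was 2.60 (adjusted p = 0.0245) and 2.99 without replicate 4. Gm3776, a predicted gene next to Gsta1 on chromosome 9 (78257129 to 78269166), rose from a mean of 46.8 to 261 CPM. The abundant Gstm3 rose 1.75-fold, from 2126 to 3729 CPM.

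The sulfotransferases, which add sulfate to steroids and phenols, rose from low levels. Sult1e1, the estrogen sulfotransferase, was at 0.41 to 1.01 CPM at 0.3 mg/kg and at 2.21 to 6.98 CPM at 3 mg/kg (log2 2.41). Sult2a1 and Sult3a1, which are female-biased in mouse liver, were called higher. Sult2a1 had a log2 difference of 3.15, and Sult3a1 had at most 2 counts in any library at 0.3 mg/kg. The Sult2a1 mean at 3 mg/kg, 30.7 CPM, was however close to the control mean of 31.1 CPM, while at 0.3 mg/kg it was 3.43 and at 6 mg/kg 15.4 CPM. Sult3a1 likewise was at 1.42 CPM in controls, 0.15 at 0.3 and 2.84 at 3 mg/kg. With Cd36, these made 3 of 14 tested female-biased genes higher and 0 lower, where 2.01% of all genes were called higher. The count was 0 to 4 higher with single libraries left out. Ugdh, which makes the UDP-glucuronate for glucuronidation, rose from 238 to 287 CPM to 365 to 742 CPM (log2 0.93). Abcc4, an export pump for organic anions, was the only one of 19 drug and anion transporters that rose, from 0.67 to 0.90 CPM to 2.59 to 3.41 CPM (log2 1.88, adjusted p = 0.00806).

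Among stress genes, Gadd45b separated the groups most clearly. Gadd45b (chromosome 10, 80930073 to 80932204) encodes a growth arrest and DNA damage inducible protein that is also a known early CAR target. Its level was 1.19, 2.48, 2.43 and 1.01 CPM at 0.3 mg/kg and 16.5, 26.6, 29.1 and 22.6 CPM at 3 mg/kg. The log2 difference was 3.71 (SE 0.36, adjusted p = 5.73e-06), the other probe gave 3.95, and the call held with plate row as a covariate (log2 4.53, adjusted p = 0.03) and within row B (adjusted p = 0.037). Control libraries had a mean of 2.54 CPM, so the rise began within this step, and at 6 mg/kg the mean was 127 CPM.

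Other p53 targets and GADD45 genes gave 2 of 18 higher in all, Gadd45b with the death receptor Fas (log2 0.67), and 1 lower, Perp (log2 -2.36), a desmosome protein that fell from 1.12 to 1.69 CPM to at most 0.55 CPM. The list median was 0.32, and over all genes 2.01% were called higher and 0.921% lower. In 5 of the 18 all 4 libraries at 3 mg/kg lay above those at 0.3 mg/kg and in 1 below. Of all genes, 6.82% and 7.48% did so. Mdm2, Gadd45a and Phlda3, among the 5, were not called (log2 0.70, 0.53 and 1.36). Of 24 NRF2 targets outside conjugation, which answer oxidative stress, 2 rose. Nqo1, a quinone reductase, went from 3.57, 3.52, 4.19 and 2.80 CPM to 6.78, 7.44, 7.33 and 8.49 CPM (log2 1.09, adjusted p = 0.00481), and Prdx1, a peroxidase, had overlapping groups (log2 0.62). Hspe1, the mitochondrial chaperonin subunit, was the only one of 11 heat shock genes called (log2 1.10, with overlap). None of the 22 endoplasmic reticulum stress genes or the 9 immediate-early genes was called by edgeR in this step.

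Cell cycle genes formed the largest group of the step. Of 48 tested mitosis genes 28 rose and 0 fell (58.3%), with a median log2 difference of 1.86, and of 45 DNA replication genes 7 rose and 0 fell (15.6%), with a median of 0.46. Calls higher made up 2.01% of all genes. Without replicate 4 at 3 mg/kg the counts of the 2 lists were 28 and 8. The filter on low counts used all 20 libraries, so genes could pass it through their counts at 6 mg/kg. The medians at 6 mg/kg against control were 3.11 and 0.50. In a fit on the 8 libraries alone, 30 mitosis genes passed the filter and 9 were called higher. For replication genes this was 2 of 42, and the medians of the 2 lists were 1.68 and 0.47. Leaving out single libraries gave 16 to 31 mitosis genes, with the lowest count without replicate 2 or replicate 3 at 0.3 mg/kg, and 3 to 9 replication genes. With plate row as a covariate, none of either list was called, with median log2 differences of 1.61 and 0.36, and within row B they were 1.63 and 0.37. Their levels were low: the sum over the mitosis genes was 86.1 to 122 CPM in libraries at 0.3 mg/kg and 191 to 299 CPM at 3 mg/kg, without overlap.

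To show what sequence lies at the start of such genes, RefSeq promoters (GRCm38.p6, 300 bases around the start) are given for the replication genes Mcm6, a subunit of the helicase that opens DNA, and Hells, a chromatin remodeller, and for the mitosis genes Cenpf, a kinetochore protein, Mki67, the proliferation marker, and Birc5, a regulator of chromosome segregation. Capitals mark matches on either strand to the E2F letters TTTCCCGC or TTTGGCGC, the CCAAT box (CCAAT) and the cell cycle homology region (TTTGAA or TTCGAA).
Mcm6 (chr1:128359656-128359955, minus strand): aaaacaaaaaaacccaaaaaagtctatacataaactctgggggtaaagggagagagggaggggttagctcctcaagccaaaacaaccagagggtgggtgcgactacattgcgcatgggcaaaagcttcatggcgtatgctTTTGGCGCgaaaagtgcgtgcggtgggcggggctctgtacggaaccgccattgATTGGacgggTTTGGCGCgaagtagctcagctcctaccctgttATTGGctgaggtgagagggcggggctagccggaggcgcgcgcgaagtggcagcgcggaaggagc
Hells (chr19:38930740-38931039, plus strand): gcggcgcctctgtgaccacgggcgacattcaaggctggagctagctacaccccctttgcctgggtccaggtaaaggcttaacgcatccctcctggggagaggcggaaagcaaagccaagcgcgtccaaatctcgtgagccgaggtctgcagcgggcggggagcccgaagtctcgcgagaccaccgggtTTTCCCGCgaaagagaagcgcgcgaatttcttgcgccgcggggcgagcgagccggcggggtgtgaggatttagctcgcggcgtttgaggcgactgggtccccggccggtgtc
Cenpf (chr1:189688037-189688336, minus strand): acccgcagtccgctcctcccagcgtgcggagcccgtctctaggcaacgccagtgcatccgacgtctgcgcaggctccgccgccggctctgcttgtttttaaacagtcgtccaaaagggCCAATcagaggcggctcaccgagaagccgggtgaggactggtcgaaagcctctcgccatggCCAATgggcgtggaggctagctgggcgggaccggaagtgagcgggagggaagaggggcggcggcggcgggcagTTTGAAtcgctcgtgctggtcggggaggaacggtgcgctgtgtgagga
Mki67 (chr7:135716330-135716629, minus strand): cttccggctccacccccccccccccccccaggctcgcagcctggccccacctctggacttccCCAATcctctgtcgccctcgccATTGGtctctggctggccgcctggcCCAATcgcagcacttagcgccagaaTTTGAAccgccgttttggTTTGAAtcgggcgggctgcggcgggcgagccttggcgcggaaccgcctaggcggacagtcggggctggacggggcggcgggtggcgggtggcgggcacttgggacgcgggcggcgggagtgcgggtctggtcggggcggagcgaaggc
Birc5 (chr11:117848987-117849286, plus strand): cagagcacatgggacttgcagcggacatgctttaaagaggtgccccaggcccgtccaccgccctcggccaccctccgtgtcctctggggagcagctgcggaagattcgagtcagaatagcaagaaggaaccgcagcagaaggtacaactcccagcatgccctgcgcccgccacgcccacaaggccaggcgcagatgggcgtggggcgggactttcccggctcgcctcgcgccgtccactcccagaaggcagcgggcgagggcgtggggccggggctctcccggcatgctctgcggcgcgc
The promoters of Mcm6 and Hells held 2 and 1 E2F matches and no cell cycle homology region. Those of Cenpf and Mki67 held 1 and 2 cell cycle homology regions with 2 and 3 CCAAT boxes and no E2F match, and that of Birc5 held 0 matches to any of these letters.

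The same letters were counted over all genes. A promoter was found for 22 of the 28 mitosis genes that rose, and 15 of the 22 held a cell cycle homology region (68.2%), 15 a CCAAT box and 12 both (54.5%). Over all 32851 promoters of the table these shares were 19.2%, 37.4% and 7.52%, and over the 7848 genes tested with a promoter 16.8%, 42.9% and 6.84%. Mitosis genes as a whole, whether called or not, held the cell cycle homology region in 27 of 40 promoters (67.5%). An E2F match was present in 3 of 5 promoters of replication genes that rose and in 0 of the 22 of mitosis genes, against 1.56% of all promoters and 3.43% of those of genes tested. Replication genes as a whole, whether called or not, held it in 10 of 36 promoters (27.8%). A match is a description of these letters in this window and not a measured binding site.

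In the values, Mcm6 was at 4.46, 4.45, 7.04 and 8.40 CPM at 0.3 mg/kg and at 16.2, 29.4, 37.7 and 32.6 CPM at 3 mg/kg. Every library at 3 mg/kg was above all 4 at 0.3 mg/kg (log2 2.25, SE 0.25, adjusted p = 2.99e-05). Hells, also at the head of the replication list, rose from a mean of 6.38 to 19.6 CPM (log2 1.62) and the cyclin Ccne2 from 3.36 to 8.33 CPM (log2 1.31). Rrm2, a subunit of ribonucleotide reductase, was also called (log2 1.42), whereas Pcna, the replication clamp, and Tk1, thymidine kinase, were at log2 0.08 and -0.02 and were not called.

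Among mitosis genes, Pbk, a mitotic kinase, went from 1.78, 1.03, 1.42 and 2.02 CPM to 8.02, 13.97, 16.4 and 16.9 CPM. The groups were far apart, with a log2 difference of 3.14 (SE 0.29, adjusted p = 3.66e-06) and the other probe at 3.44. Kif20a, a kinesin of cell division, was at 3.17, 2.90, 3.77 and 4.59 CPM and at 8.99, 18.4, 22.1 and 27.2 CPM (log2 2.41, adjusted p = 7.69e-05). In both genes replicate 1 was the lowest library at 3 mg/kg, and over all 203 genes that rose it was the lowest in 124 (61.1%, against 19.6% of all genes tested).

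The mitotic cyclins and kinases followed. Ccna2 and Ccnb2 had log2 differences of 2.91 and 2.28, and Birc5, which guards chromosome segregation, of 2.68. Aurkb and Plk1, kinases of the spindle, had 2.14 and 2.27, and Cdc20, an activator of the anaphase complex, had 2.64. Mki67 was at 0.099 to 0.34 CPM at 0.3 mg/kg, at most 4 counts, and at 1.52, 1.80, 1.87 and 0.19 CPM at 3 mg/kg, so that replicate 4 fell among the 0.3 mg/kg libraries. The genes of this list that were not called lay between log2 -0.08 (Bub3) and 2.03 (Nusap1), and the called ones between 0.86 (Cenpa) and 3.14 (Pbk).

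**Figure D3:**
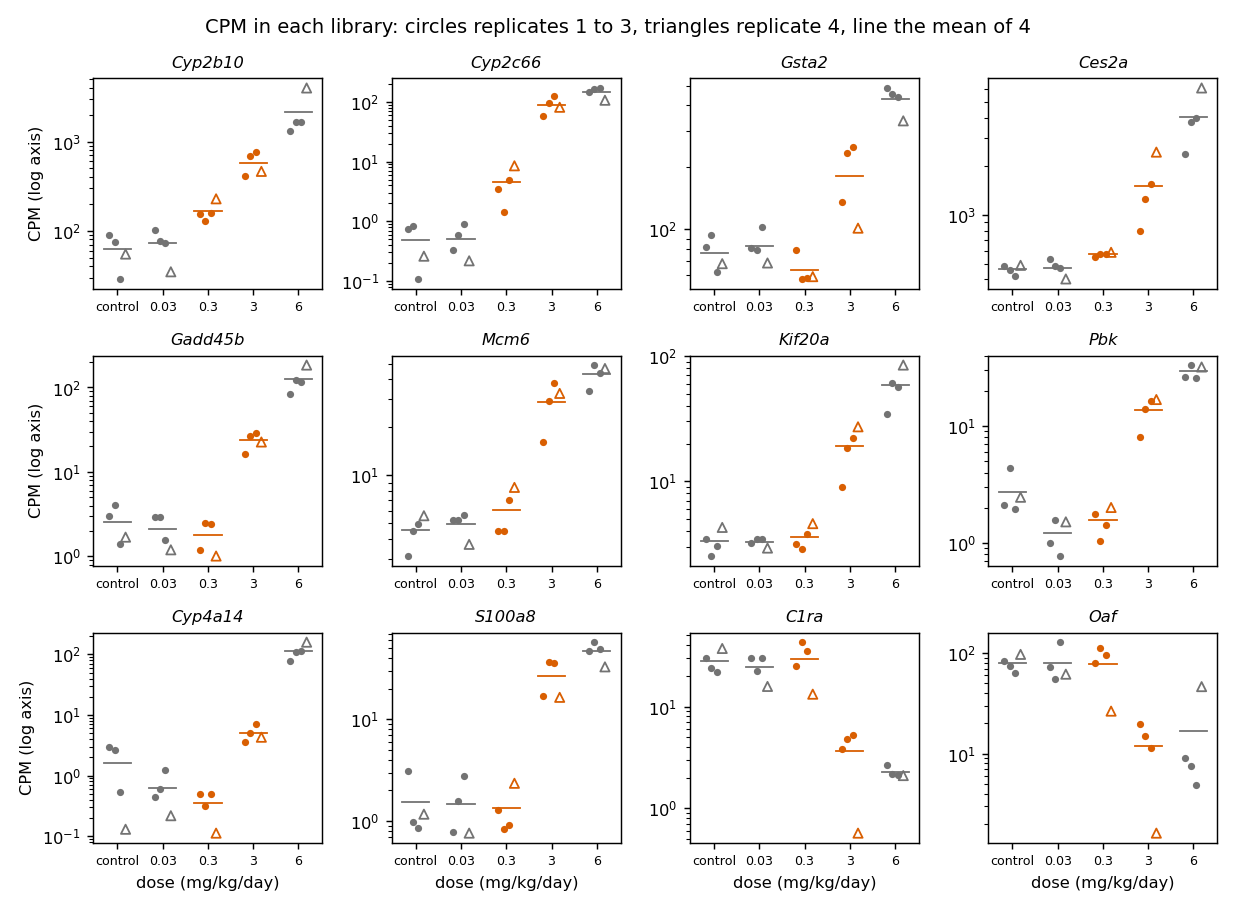
CPM on a log axis in each of the 4 libraries of every dose group for 12 genes, with circles for replicates 1 to 3, triangles for replicate 4 and a line at the mean of 4; orange marks 0.3 and 3 mg/kg. For Gadd45b, Mcm6, Kif20a, Pbk and S100a8 the libraries up to 0.3 mg/kg lie together and all 4 at 3 mg/kg lie above them, while Cyp2b10, Cyp2c66 and Ces2a are raised at 0.3 mg/kg already.

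PPARalpha targets gave 8 of 51 higher and 0 lower (15.7% higher, against 2.01% of all genes), with a median log2 difference of 0.23. The count was 6 without replicate 4 at 3 mg/kg, and 4 to 8 over single libraries left out. Cyp4a14, a fatty acid omega-hydroxylase, was at 0.50, 0.31, 0.50 and 0.11 CPM at 0.3 mg/kg and at 3.60, 4.96, 7.16 and 4.29 CPM at 3 mg/kg. The groups did not overlap (log2 3.70, adjusted p = 0.00222), and the control mean of 1.58 CPM lay between them. Cyp4a10 read 47.4, 80.9, 137 and 4.96 CPM against 2.80 to 5.48 CPM, so that replicate 4 at 3 mg/kg was no higher than the 0.3 mg/kg group by this probe, while the other Cyp4a10 probe gave 12.6, 23.0, 43.1 and 71.4 CPM against 1.01 to 4.56 CPM. Both probes were called, at log2 3.96 and 3.88.

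The wider oxidation programme moved less. Ehhadh, the bifunctional enzyme of peroxisomal oxidation, was at 314, 317, 288 and 258 CPM and at 320, 454, 586 and 564 CPM (log2 0.71, adjusted p = 0.0418). Replicate 1 at 3 mg/kg lay just above the 0.3 mg/kg group. Acot2, a thioesterase, had overlapping groups and was not called (log2 0.34), and at 6 mg/kg against control its log2 difference was 3.51. Fabp4, a fatty acid carrier, rose from 8.76 to 20.1 CPM, and Cd36, a fatty acid uptake receptor, from 6.19 to 13.1 CPM.

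Lipid synthesis genes gave few calls in this step. Elovl6, a fatty acid elongase, was the only one of 24 fatty acid synthesis genes that rose (log2 0.80), and Fdft1, squalene synthase, the only one of 27 cholesterol genes (log2 0.52). Without replicate 4 at 3 mg/kg, 2 of the 24 and 1 of the 27 were called lower, where 233 of 14350 probes were. Without both libraries that stood apart, 4 and 3 were called lower and 1 and 2 higher. In that fit 710 of 14271 probes were lower and 813 higher. Fasn, fatty acid synthase, was at 7.39 to 11.7 CPM at 0.3 mg/kg and at 7.61, 9.24, 10.4 and 35.1 CPM at 3 mg/kg, so replicate 4 alone was outside the range. Without that library its log2 difference went from 0.71 to -0.10. None of the 19 bile acid genes was called. Cyp7a1, which catalyses the first step of the classical bile acid pathway, was at 16.4 to 23.4 CPM at 0.3 mg/kg and at 20.8, 15.9, 13.8 and 348 CPM at 3 mg/kg, and its log2 difference of 2.37 (adjusted p = 0.117) was -0.21 without replicate 4.

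Of the 93 genes that fell, 11 were members of the gene lists used here. C1ra, a protease of complement on chromosome 6 (124512405 to 124523443), had the largest fall of the 93 genes by log2 difference. It was at 25.1, 42.8, 34.8 and 13.2 CPM at 0.3 mg/kg and at 3.87, 4.85, 5.28 and 0.57 CPM at 3 mg/kg. In both groups replicate 4 was the lowest library, and the log2 difference was -3.04 (SE 0.43, adjusted p = 6.54e-04), -2.64 without replicate 4 at 3 mg/kg and -1.89 within row B. C1ra was the only called gene of 21 in the complement list, where 3 were called lower without replicate 4 at 3 mg/kg and also without replicate 4 at 0.3 mg/kg. In 4 of the 21 all 4 libraries at 3 mg/kg lay below those at 0.3 mg/kg and in 0 above. Of all genes, 7.48% lay below and 6.82% above.

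The blood proteins gave few calls. Apob, the structural protein of secreted lipoproteins, was at 667, 814, 671 and 428 CPM and at 358, 322, 314 and 339 CPM (log2 -0.95, adjusted p = 0.00927). The other probe of Apob was at 113 to 161 CPM and at 103, 81.7, 90.0 and 411 CPM, with a log2 difference of 0.39, so its direction was opposite, with replicate 4 at 3 mg/kg the highest library. Mttp, which loads lipid onto Apob, rose (log2 0.56). Serpinc1, antithrombin, fell by 0.46 on the log2 scale and was the only one of 25 coagulation genes called (0.921% of all genes were called lower). In 7 of the 25 all 4 libraries at 3 mg/kg lay below those at 0.3 mg/kg and in 0 above. Of all genes, 7.48% lay below and 6.82% above. Without both libraries that stood apart, 5 of the 25 were called lower and 0 higher, where 710 of 14271 probes were lower. Serpina1a, the protease inhibitor alpha-1-antitrypsin, was at 203, 305, 131 and 83.6 CPM and at 54.1, 44.9, 71.4 and 4.39 CPM (log2 -2.05, adjusted p = 0.0418), and has close copies.

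Amino acid enzymes gave 3 calls lower and 0 higher of 33, with a median log2 difference of -0.19, and 11 of the 33 had all 4 libraries at 3 mg/kg below those at 0.3 mg/kg (33.3%, against 7.48% of all genes). Calls lower made up 0.921% of all genes. Without replicate 4 at 3 mg/kg 1 of the 33 was called lower. Glul, glutamine synthetase, was at 88.6, 109, 101 and 102 CPM and at 71.0, 64.4, 53.5 and 25.3 CPM (log2 -0.91, adjusted p = 0.0466), and its other probe gave -0.92 without a call. Cbs, which begins the conversion of homocysteine to cysteine, went from 500 ± 30.3 to 349 ± 49.7 CPM (SD, n = 4). Tat, tyrosine aminotransferase, fell by 1.39 on the log2 scale, but its control mean, 2.67 CPM, was near the 2.17 CPM at 3 mg/kg.

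Glul also marks the hepatocytes around the central vein, and with Lgr5, a Wnt target there, it made 2 of 13 pericentral genes lower and 0 higher. Lgr5 was at 3.87, 3.72, 2.51 and 2.02 CPM and at 1.66, 0.79, 0.51 and 0.095 CPM (log2 -2.03, adjusted p = 0.0316). The last of these values is below 3 counts. Axin2 and Oat, also pericentral, were not called. Single libraries left out gave 0 to 2 calls in this list, and with all libraries 0.921% of all genes were called lower.

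Falls outside the lists included Oaf, a secreted protein, Dpy30, a subunit of histone methyltransferase complexes, Scly, selenocysteine lyase, and Srsf9, a splicing factor. Oaf was at 78.7, 113, 95.3 and 26.4 CPM and at 19.5, 14.9, 11.2 and 1.62 CPM (log2 -2.74, adjusted p = 0.0347). Dpy30 was at 44.7, 39.3, 40.4 and 20.9 CPM and at 10.1, 11.8, 12.3 and 0.57 CPM (log2 -2.09, adjusted p = 0.0289). In each, replicate 4 was the lowest library of both groups. The other probe of Dpy30 gave a log2 difference of -0.03, that of Srsf9 -0.21 beside -1.42 for the main probe, and that of Scly -0.47 beside -1.93.

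Over all calls, genes that rose and genes that fell differed in how far their other probes followed. Of 92 genes called higher with another tested probe, 80 had all other probes of the same sign and 35 had another called, with a median of 1.02. Of 30 genes called lower, 23 and 2 did so, with a median of -0.39. Counted by probe, 72 of 152 calls higher (47.4%) and 4 of 75 calls lower (5.33%) had a second probe called the same way. Without replicate 4 at 3 mg/kg these shares were 43.8% and 10.1%, and without both libraries that stood apart 36.9% and 21.5%. Replicate 4 at 3 mg/kg was the lowest of its group for 64 of the 93 genes that fell (68.8%, against 41.5% of all genes tested), and replicate 4 at 0.3 mg/kg was the lowest of its group for 69 (74.2%, against 30.4%). The part of these libraries in the falls was not tested.

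**Figure D4:**
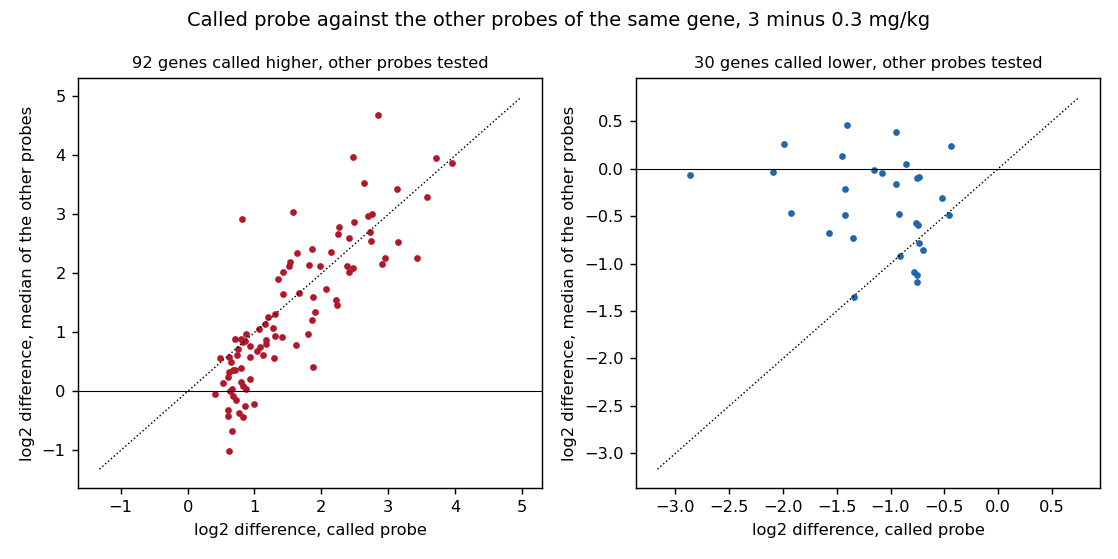
Log2 difference between 3 and 0.3 mg/kg of the main probe (horizontal axis) against the median of the other tested probes of the same gene (vertical axis), for 92 genes called higher (left) and 30 called lower (right); the dotted line marks equal values. Most genes called higher lie near the line, whereas many called lower lie near 0 on the vertical axis.

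Acute-phase and immune genes changed in a few members. Orm2 and Orm3, orosomucoids of the acute phase, were the 2 of 21 that rose (log2 1.85 and 3.43), where 2.01% of all genes did. Orm2 was at 8.92, 5.38, 7.54 and 9.97 CPM and at 16.7, 26.4, 38.0 and 33.3 CPM, and Saa1, a major acute-phase protein, was at 108 to 199 CPM and at 87.4 to 176 CPM with overlap. Hamp, the iron hormone hepcidin, was lower in all 4 libraries at 3 mg/kg without a call (log2 -0.98). Ifit2 was the only one of 32 interferon response genes called (log2 0.99), and at 3 mg/kg its level of 4.58 to 6.31 CPM was around the control mean of 5.45 CPM.

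S100a8, a calcium-binding protein abundant in neutrophils, rose from 1.29, 0.83, 0.92 and 2.35 CPM to 17.2, 36.6, 36.1 and 16.5 CPM. The separation was complete (log2 4.31, SE 0.44, adjusted p = 1.34e-05) and stood at 3.50 within row B without a call. Its partner S100a9 did not pass the count filter, with 3 to 13 counts in each of the 8 libraries. Of 10 neutrophil markers 3 were tested and S100a8 was the only one called, with Ly6g and Retnlg not called. In whole tissue, more cells of a type and more RNA per cell cannot be told apart.

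Markers of the other liver cell types moved little. No marker of Kupffer cells (11 tested), endothelial cells (13), cholangiocytes (2), lymphocytes (7) or red blood cells (3) was called by edgeR. The summed Kupffer cell markers were at 170 to 190 CPM at 0.3 mg/kg and 133 to 184 CPM at 3 mg/kg. The summed stellate cell markers, the resident fibroblast-like cells, were at 231 to 289 CPM and 136 to 245 CPM, with Ecm1 called lower (log2 -0.76). Lymphocyte markers had a median log2 difference of 0.44, with 3 of 7, the B cell genes Cd79a and Cd79b and the pan-leukocyte gene Ptprc, above in all 4 libraries (6.82% of all genes were). The median of the same markers was -0.48 at 0.3 mg/kg against the lower groups and -0.63 at 6 mg/kg against control. Pnliprp1, a lipase-related protein of exocrine pancreas, was called higher from a mean of 0.081 to 0.99 CPM, while the other tested pancreas marker Cela1 was not called.

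Ribosomal protein genes of the cytosol had a median log2 difference of 0.25 over 44 tested genes, beside -0.21 at 0.3 mg/kg against the lower groups and 0.05 at 6 mg/kg against control. In the step, all 4 libraries at 3 mg/kg were above for 15 (34.1%, against 6.82% of all genes), and 1 was called higher, Rpl12 (log2 0.79), and 1 lower, Rplp2 (log2 -0.65, with overlap). The median was 0.09 under scaling by total counts, with 4 called higher without replicate 4 at 3 mg/kg. Growth hormone dependent and male-biased genes (22 tested), glucose and glycogen genes (21), clock genes (14) and nuclear receptors with liver transcription factors (24) had no call by edgeR. Among them Nr1i3, which encodes CAR, was at 249 to 395 CPM and 276 to 442 CPM, and Ppara at 169 to 228 CPM and 107 to 224 CPM. Replicate 4 was the highest library at 3 mg/kg for Ppara, and without it Ppara was called lower (log2 -0.52, adjusted p = 0.0387), as it was without both libraries that stood apart (log2 -0.53, adjusted p = 0.0124).

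**Figure D5:**
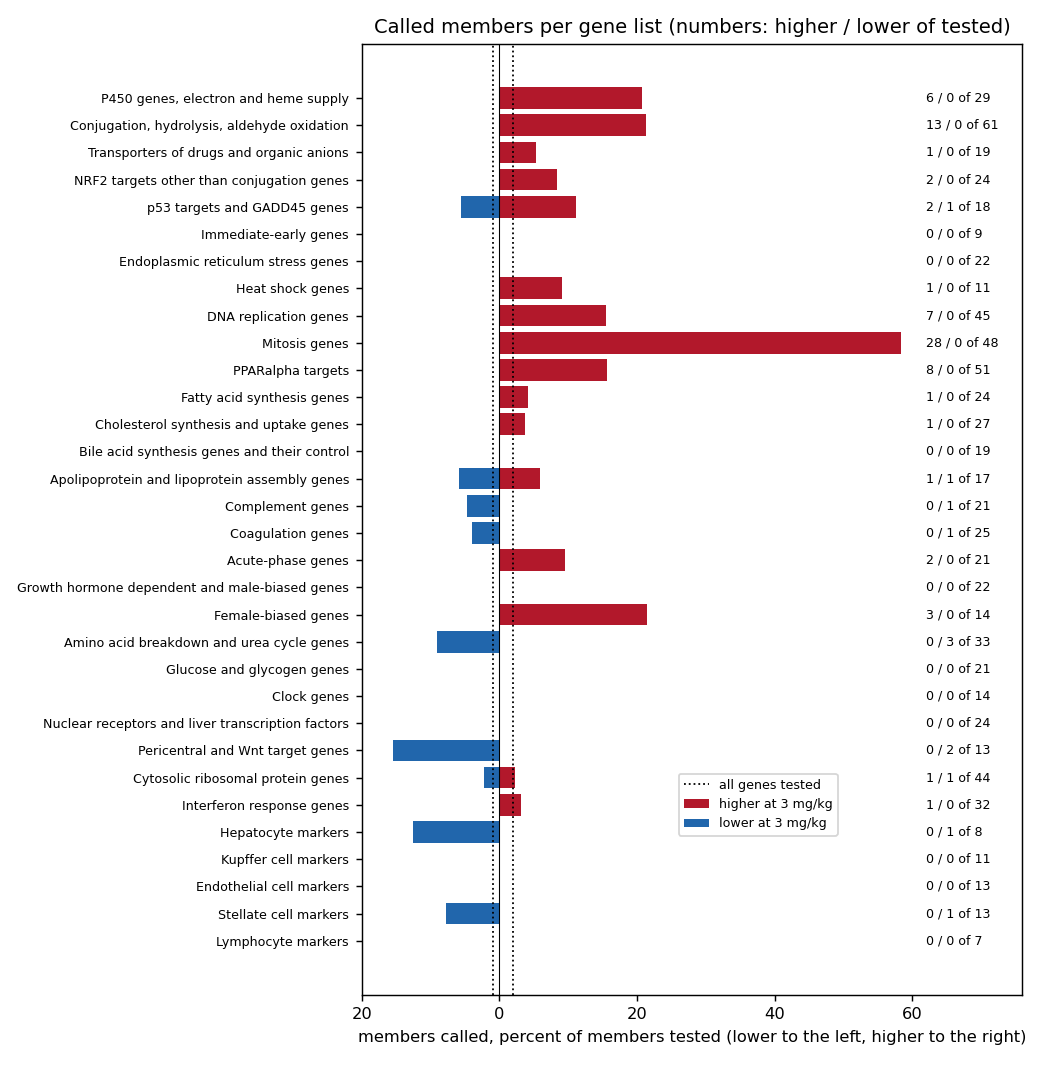
Percent of tested members called higher (red, to the right) and lower (blue, to the left) at 3 than at 0.3 mg/kg in each gene list with at least 5 tested members; dotted lines give the shares over all genes tested, 2.01% higher and 0.921% lower. Mitosis genes reach 58.3% higher, and the next list, female-biased genes, reaches 21.4%.

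The 0.3 mg/kg group was also set beside the lower groups in these genes. The genes were called with these same 0.3 mg/kg libraries, so the values in this paragraph are not independent of the step. Its median log2 difference from control and 0.03 mg/kg together was -0.21 for the 203 genes that rose in the step and 0.25 for the 93 that fell. Such values, opposite in sign to the step, are favoured by how the genes were chosen. Set against control in place of 0.3 mg/kg, the medians at 3 mg/kg were 1.03 and -0.80. All 4 libraries at 0.3 mg/kg lay within the range of the 8 control and 0.03 mg/kg libraries for 72 of the 203 genes that rose and 17 of the 93 that fell, where 42.1% of all genes did. All 4 were already above that range for 5 genes that rose, which were Cyp2b10, Cyp2c66, Ces2a, Gstt3 and 9130409I23Rik (0.455% of all genes lay above). For 4 genes that rose (Idh3g, Snrpg, Ttc39a and Gm20736) the 0.3 mg/kg libraries were all below the lower groups (0.812% of all genes).

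The 6 mg/kg and control groups share no library with the step and measure the same genes in other animals, with 6 mg/kg in row B and controls in row A. Because all 20 libraries entered the filter on low counts, genes could pass it through their counts at 6 mg/kg. For such genes a rise at 6 mg/kg over control is favoured by the filter. With the filter on the 8 libraries of the step alone, 13070 probes passed in place of 14122. Of the 203 genes that rose in the step, 179 had the same sign at 6 mg/kg against control and 143 were called higher there (10.9% of all genes were), with a median log2 difference of 1.68. Of the 93 that fell, 75 had the same sign and 36 were called lower (9.63% of all genes were), with a median of -0.48. In the fit without both libraries that stood apart, which called 641 genes higher and 485 lower in the step, 378 of the 641 and 321 of the 485 had the same sign at 6 mg/kg against control, with medians of 0.13 and -0.22. Of these genes 222 and 162 were called the same way there, where 13.5% and 15.1% of all genes were.

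Beside the step values, the differences between 6 and 3 mg/kg, which share the 3 mg/kg libraries, varied between groups of genes. Gadd45b, Cyp4a14 and Gstm3 were higher again at 6 mg/kg, by log2 2.42, 4.53 and 1.43, each called (3.96% of probes were called higher at 6 than at 3 mg/kg and 2.77% lower). Cyp2c66 and Mcm6 differed by 0.71 and 0.58 and were not called. Cholesterol synthesis and uptake genes, with 1 of 27 called in the step, had a median log2 difference of 0.82 between 3 and 6 mg/kg. At 6 mg/kg against control, which also spans the lower dose steps, 20 of 27 were called higher (10.9% of all genes were). Their median at 0.3 mg/kg against the lower groups was 0.29. Sqle, squalene epoxidase, was at log2 0.11 in the step and at 1.19 between 3 and 6 mg/kg. Both values include replicate 4 at 3 mg/kg, which was far above its group for Sqle (69.1 CPM). The other Sqle probe read 21.8 CPM in that library and 4.85 to 5.62 CPM in replicates 1 to 3.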

How the data were processed

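Liver RNA of 20 mice was measured by TempO-Seq, per the labels' protocols. The authors deposited 1 table of raw counts per probe for 20 libraries. The submitters' processing notes name Bowtie and GRCm38.p5, with no version or settings of Bowtie. Scaling and tests were made here from those counts.

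Probes were filtered with filterByExpr, which kept 14122 probes with 99.8% of counts, scaled with TMM factors and tested with edgeR's quasi-likelihood test (edgeR 4.0.16, limma 3.58.1, R 4.3.3). All 20 libraries entered 1 fit with a mean per dose group and 15 residual degrees of freedom. P-values were adjusted over all probes by Benjamini-Hochberg, with a threshold of 0.05. A gene is its probe with the highest mean count. CPM values use the TMM-scaled library size. Scripts were tested on simulated data.

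Named genes are up to 10 per direction with the largest difference among called, non-overlapping genes at 20 CPM or more, up to 3 called members of each list per direction, and a fixed set of sentinels. Other genes named, such as Aurkb or Mdm2, were chosen after their values were seen. The comparison, the gene lists and the sentinels were chosen with earlier results of these data known. Alternatives were other scalings, filters, tools (limma-voom, DESeq2 1.42.0), samples and plate row. Gene coordinates are from GENCODE on GRCm38.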

Additional observations from a re-analysis of the deposited data

Results flagged for a closer look

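Several libraries stood apart from the other 3 of their group, by a criterion that chance meets in about 1 in 20 groups. At 3 mg/kg, the mean correlation of replicate 4 with its group, 0.870, was far below the rest. Replicate 4 at 3 mg/kg was also far above its group for Fasn (35.1 CPM), Sqle (69.1 CPM) and Cyp7a1 (348 CPM), and replicate 3 for Elovl6 (45.8 CPM). At 0.3 mg/kg, replicate 1 was far above its group for Gsta2 (79.4 CPM) and replicate 3 far below for Mup20 (319 CPM). Replicate 1 for Gstm3 (2037 CPM) and replicate 4 for Perp (1.12 CPM) were below their group by the same criterion. For Gstm3 the gap was small beside its level.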

How the results depend on the processing

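Against 263 probes higher and 138 lower, scaling by total counts gave 192 and 437, a filter of 100 counts in 4 libraries 142 and 80, DESeq2 491 and 323, a fit on the 8 libraries alone 68 and 6, and a minimum of 1.5-fold by glmTreat 64 and 9. Plate row as a covariate gave 2 and 0 and the comparison within row B 3 and 0, both by edgeR. Leaving out both libraries numbered 4 at 3 and 6 mg/kg gave 813 and 710, and leaving out single libraries gave 91 to 395 higher and 17 to 251 lower. The cause of these shifts was not tested. Of 60 named genes that were called, 59 were not past the threshold with plate row as a covariate, 58 within row B and 37 by glmTreat, and none changed direction under these settings. In the fit on 8 libraries 36 were not past the threshold and 21 were, none with a changed direction, and Cyp2c65, Mki67 and Pnliprp1 had no value. All these settings reuse libraries that gave the calls, so a kept direction is favoured by the choice of genes. No paired analysis was made, because each library came from a separate animal at a single dose. The labels give no replicate numbers, and those used here follow the order of the samples. The number of libraries and low counts limit the precision: 70 genes called higher had a mean under 5 CPM. The comparison at 6 mg/kg, the other probes and the list medians without the libraries numbered 4 were added after seeing the data.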

Other observations

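Among genes outside the lists, further genes of chromosome replication and division were called higher at 3 than at 0.3 mg/kg. Esco2, a cohesin acetyltransferase, was at 2.38, 0.62, 2.09 and 3.70 CPM at 0.3 mg/kg and at 9.41, 12.96, 19.1 and 10.5 CPM at 3 mg/kg, without overlap (log2 2.56). Knl1, a kinetochore scaffold, had a log2 difference of 2.48. Tfrc, the transferrin receptor, was at 43.7 to 74.0 CPM and at 83.0 to 151 CPM, without overlap. These genes were chosen after their values were seen.

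Of 21 tested genes on chromosome Y, 7 were called higher in the step, where 2.01% of all genes were. Their summed level was 0.67 to 3.10 CPM at 0.3 mg/kg and 18.5 to 57.9 CPM at 3 mg/kg, but it was 8.41 to 77.8 CPM in controls, 1.95 to 12.0 CPM at 0.03 mg/kg and 3.30 to 37.9 CPM at 6 mg/kg. None of the 7 was called at 6 mg/kg against control by edgeR, with adjusted p from 0.25 to 0.93.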
